A study of Mus musculus with 18 samples.

Results

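A set of 9 genes of cytokine signalling was followed across the series: the IL-6 receptor chains Il6ra and Il6st, the transcription factors Stat3 and Stat6, the inhibitors Socs1, Socs2, Socs3 and Cish, and the kinase gene Pim1. They were chosen by symbol, and all 9 of the 9 symbols were found among the 46983 genes of the deposited table. The libraries came from mouse CD8 T cells sorted by surface CD44 into naive cells (CD44 low) and memory-phenotype cells (CD44 high). No stimulation or treatment of the cells is named in the labels. There were 4 naive and 4 memory libraries of wild-type mice, and 5 naive and 5 memory libraries of mice carrying the Hsd allele of Dock2 on both chromosomes, labelled Dock2-/- and called Dock2-deficient here. Dock2 codes for an activator of the GTPase Rac in blood cells. The strain field reads C57BL/6J for all 18 libraries, while the sample descriptions of the Dock2-deficient libraries name C57L6NHsd, so substrain and genotype cannot be told apart. Ages are not given in the labels. Whether replicates came from separate mice is not stated in the labels. The p-values below therefore cover only the spread among these libraries, which may be technical.

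Cytokines signal to T cells through receptor chains that carry Janus kinases (JAKs), which phosphorylate STAT transcription factors. The phosphorylated STATs enter the nucleus and switch on target genes. IL-6 binds IL-6Rα (Il6ra) and then gp130 (Il6st), which acts mainly through STAT3, while IL-4 acts mainly through STAT6. SOCS proteins and CIS (Cish) are made in response to STATs and damp the same receptors, so their mRNA is often read as a trace of recent cytokine signalling. T cells lower their IL-6 receptor when activated through the antigen receptor. Memory cells depend on IL-15 and IL-7, whose receptors act mainly through STAT5.

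STATs bind short palindromes, and 2 spacings were searched in the RefSeq promoter windows of these genes (250 bases before to 50 after each annotated start, GRCm38.p6). TTCNNNGAA, with 3 free bases between TTC and GAA, is the spacing used by most STATs, and the form with 4 free bases is the spacing preferred by STAT6. Each is its own reverse complement, so a single search covers both strands, and the patterns cannot match the same bases. The table held 9 windows for 8 of the genes, with 2 for Pim1. TTCNNNGAA was present in the windows of Cish and Socs3, in 2 of 8 genes, and in 8.30% of all 32851 promoters. Cish held 2 matches, as did 0.457% of all promoters with 2 or more. The form with 4 free bases was found in none of the 9 windows and in 6.95% of all promoters. The stretches with matches are shown 5′ to 3′ because these are the feedback genes whose levels are compared below, with each match in capitals.
Cish, chr9:107296539-107296678, plus strand, from 120 bases before to 20 bases after the start: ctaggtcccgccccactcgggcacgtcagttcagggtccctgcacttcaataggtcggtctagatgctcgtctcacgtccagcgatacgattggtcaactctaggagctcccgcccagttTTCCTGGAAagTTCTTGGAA
Socs3, chr11:117969367-117969616, minus strand, the 250 bases before the start: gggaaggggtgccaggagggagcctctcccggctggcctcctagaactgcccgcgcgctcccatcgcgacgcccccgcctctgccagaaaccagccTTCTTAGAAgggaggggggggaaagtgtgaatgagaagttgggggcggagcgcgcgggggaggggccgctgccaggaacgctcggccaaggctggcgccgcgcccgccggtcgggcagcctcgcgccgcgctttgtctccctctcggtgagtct
The matches of Cish began at bases 1 and 12 after the start and that of Socs3 at base -154, so only Socs3 held a match in the bases before its RefSeq start (7.02% of all promoters). GENCODE M21, used for the gene positions below, starts Socs3 681 bases and Cish 633 bases farther upstream, so by that annotation both printed stretches lie inside the genes. These are matches of letters, and binding was not measured.

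Sequencing depth was 2215987 to 8257768 expected reads per library (median 4336394), of which the ribosomal RNA gene Rn18s-rs5 took 37.0% to 69.4% and mitochondrial transcripts 3.33% to 7.50%. Values are normalized expected counts, that is, RSEM expected counts scaled between libraries by the authors. Library 4 of wild-type memory cells and library 5 of Dock2-deficient memory cells lay apart in the principal components of all genes. Calls of the genes named below that ended when both were left out together are said to have done so. Dock2 itself read 288 to 514 in wild-type naive, 399.7 to 844 in wild-type memory, 171 to 373 in Dock2-deficient naive and 61.0 to 279.6 in Dock2-deficient memory libraries. Its RNA was thus present in every library. The CD8 chain gene Cd8a was 612 to 1583 in all 18 libraries, and Cd44 RNA ranged from 0 to 21.7 over the naive and from 124 to 222 over the memory libraries, as the sort labels say. Xist, which is transcribed from the inactive X of female cells, was 1820.4 to 3887 in the 8 wild-type libraries and 2217 and 2593 in library 1 of each Dock2-deficient group. In the other 8 Dock2-deficient libraries it was at most 5.44. Sex and genotype can therefore be told apart only through these 2 libraries. In bulk RNA, fewer cells with a transcript and less of it per cell cannot be told apart.

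Compared per unit of length, Il6ra and Stat6 had the highest levels of the 9 genes, and Pim1 and Socs2 the lowest. Per kilobase of the principal transcript, the mean level over the 18 libraries was 87.7 for Il6ra, 84.5 for Stat6, 45.6 for Stat3 and 23.6 for Il6st. Among the inhibitors and Pim1, a kinase gene induced by cytokines, the level per kilobase was 21.9 for Socs3, 14.5 for Socs1, 13.5 for Cish and 5.88 for Pim1. Socs2, which damps growth hormone and other STAT5 signals, read 0.581 per kilobase. It reached 10 in 0 of 18 libraries and had 0 to 4 reads, so it was not tested, and the other 8 genes were.

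**Figure D1:**
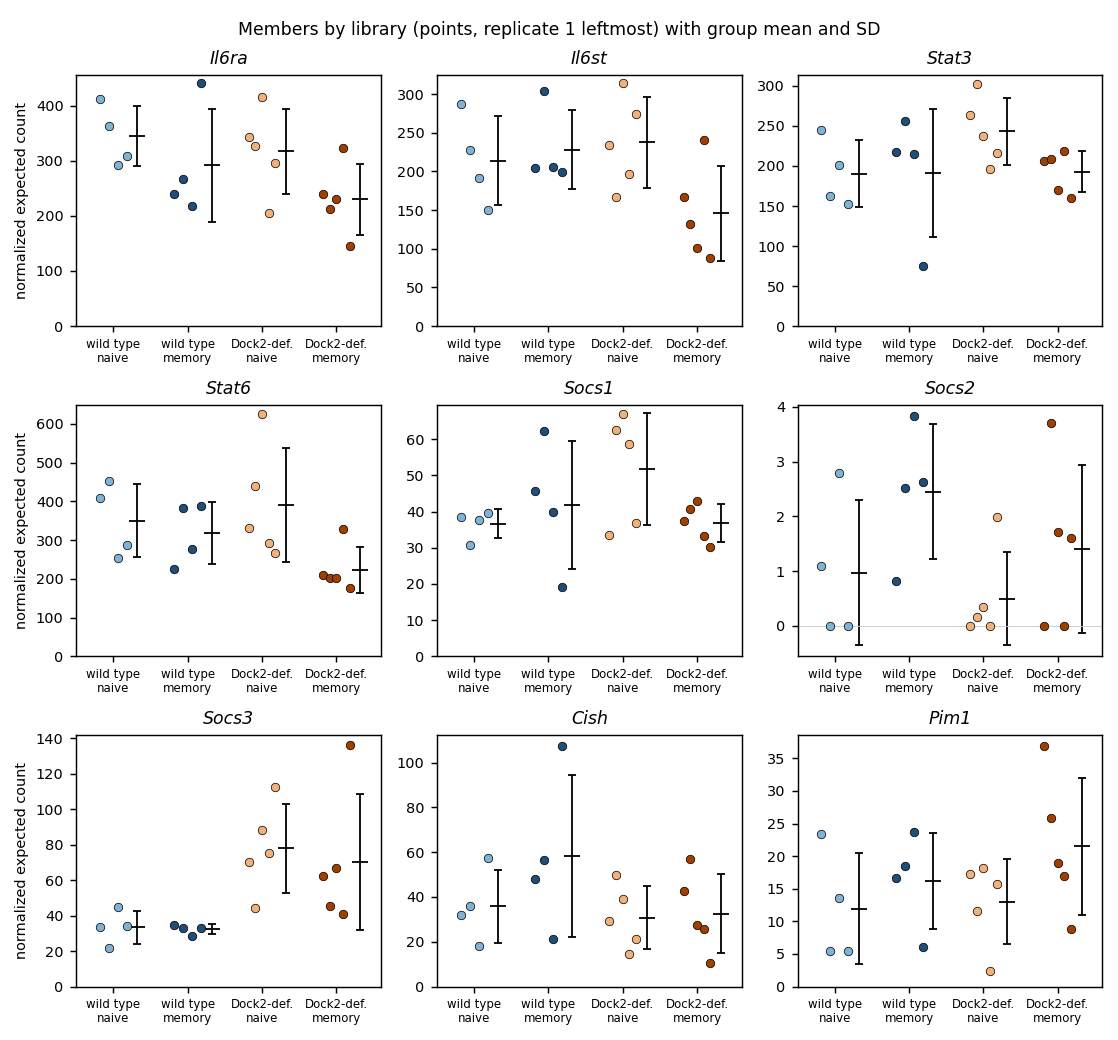
Normalized expected count (linear y axis) of the 9 genes in each of the 18 libraries, with points for libraries (replicate 1 leftmost in its group) and bars for the group mean ± SD (4, 4, 5 and 5 libraries). Socs3 is the panel in which the Dock2-deficient libraries (40.9 to 136.2) sit above nearly all wild-type libraries (21.7 to 44.7).

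Socs3 was the gene of this set that differed most between genotypes. SOCS3 binds gp130 and JAKs and is the main brake on IL-6 and STAT3 signalling. The gene (ENSMUSG00000053113) lies on chromosome 11, 117966079 to 117970047, minus strand (mm10). Among naive cells, wild-type libraries 1 to 4 gave normalized expected counts of 33.6, 21.7, 44.7 and 33.9, and Dock2-deficient libraries 1 to 5 gave 70.0, 44.2, 88.1, 75.4 and 112.5. Among memory cells, the wild-type libraries gave 34.8, 32.7, 28.4 and 33.2, and the Dock2-deficient libraries gave 62.1, 45.7, 67.0, 40.9 and 136.2. The memory groups did not overlap, while in naive cells Dock2-deficient library 2 lay just under wild-type library 3. Across both states, 8 of 10 Dock2-deficient libraries lay above the highest wild-type value and 7 of 8 wild-type libraries below the lowest Dock2-deficient value.

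Naive cells had Socs3 means of 33.5 ± 9.40 (SD, n = 4, wild type) and 78.0 ± 25.0 (SD, n = 5, Dock2-deficient), 2.26-fold apart on the log2(value + 1) scale used for all tests. The log2 fold change was 1.18 ± 0.32 (SE, 95% interval 0.51 to 1.85), which did not pass limma's test after Benjamini-Hochberg adjustment over all 9437 genes tested (adjusted p = 0.266). For memory cells, Socs3 averaged 32.3 ± 2.76 (SD, n = 4) against 70.4 ± 38.4 (SD, n = 5), 1.96-fold apart. That log2 fold change of 0.97 ± 0.32 (interval 0.30 to 1.64) did not pass either (limma, adjusted p = 0.238). The memory log2 fold change was 0.70 without Dock2-deficient memory library 5, which read 136.2 and lay apart. The naive and memory intervals, over all libraries, lay above 0. The difference between the naive and memory fold changes, -0.21 ± 0.45, did not pass limma's interaction test (adjusted p = 0.940).

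Since the direction was the same in both states, the genotype difference was also averaged over naive and memory cells, a comparison chosen after the Socs3 values had been seen. It gave 1.07 ± 0.23 (interval 0.60 to 1.55), a 2.10-fold difference that passed limma's test (adjusted p = 0.0388), with Socs3 at place 30 of 9437 genes by p. In this comparison 35 genes passed, 0.371% of those tested, and 14.8% had an unadjusted p under 0.05. Naive and memory libraries of a genotype may come from the same mice, which the labels do not state, and the test treats them as separate. The call was held in 9 of 27 refits. It was held in 5 of the 18 that left out 1 library (adjusted p 0.0193 to 0.105), those without wild-type naive 3, Dock2-deficient naive 2, or Dock2-deficient memory 2, 4 or 5. Leaving out any other single library ended it, as did leaving out both libraries that lay apart (adjusted p = 0.0561).

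Sex, markers of other cells and genes of the sort were read beside Socs3, and their part in the result was not tested. The 2 Dock2-deficient libraries with Xist had Socs3 values of 70.0 (naive) and 62.1 (memory), both above all 8 wild-type libraries, and the other 8 ranged from 40.9 to 136.2. Among markers of other lymphocytes, the summed level of the 4 gamma delta T cell genes was 3.63 to 5.65 in wild-type naive and 25.1 to 53.8 in Dock2-deficient naive libraries, carried mostly by Trdc, with Sox13 and Blk at or near 0. In memory cells that order was turned, at 16.4 to 33.2 in wild type and 10.7 to 16.8 in Dock2-deficient mice. The 6 myeloid genes summed to between 4.06 and 25.2 (wild type) and 5.66 and 29.9 (Dock2-deficient) in naive cells. In memory cells the sums lay between 5.55 and 16.7 and between 8.88 and 44.5, wild type first, with the macrophage gene Adgre1 at 0 in all 18. Itgam, whose 2 entries were added together, made up most of the sum in wild-type naive and in all memory libraries. Its larger entry was 41.1 in Dock2-deficient memory library 3. The 29.9 came mainly from Clec9a (14.9) and Lyz2 (10.2) in Dock2-deficient naive library 2. Of genes that mark memory cells, Tbx21 (T-bet) was 2.79 to 18.2 in wild-type naive and 28.7 to 81.5 in Dock2-deficient naive libraries. Its memory ranges were 380 to 648 (wild type) and 272 to 517 (Dock2-deficient). In naive cells Cd44 RNA averaged 6.61 ± 2.65 (SD, n = 4) for wild type, against 5.99 ± 8.91 (SD, n = 5) for Dock2-deficient mice. Of the other sort genes, Ccl5 was 0 to 5.42 in wild-type naive and 18.9 to 102.6 in Dock2-deficient naive libraries. Il2rb averaged 310 and 456 in these groups, which overlapped. The genes that mark naive cells, Ccr9 (276 to 480 against 200 to 422) and Igfbp4 (336 to 474 against 261 to 511), also overlapped.

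The receptor chains showed no change between naive and memory cells that passed the test, and Il6st (gp130) stood lowest in Dock2-deficient memory cells. Il6st lies on chromosome 13, 112464070 to 112510086, plus strand, and Il6ra on chromosome 3, 89864059 to 89913196, minus strand (mm10). In replicate order, wild-type Il6st values were 287, 228, 191 and 150.2 (naive) and 204, 304.1, 206 and 199 (memory). The Dock2-deficient values were 235, 167, 314, 197 and 275 (naive) and 167, 132, 101, 241 and 87.6 (memory). Dock2-deficient memory library 4 lay within the range of the other groups, and the other 4 libraries of that group reached at most 167. Of those, library 1 (167) also lay within the wild-type naive range.

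The Il6st means in Dock2-deficient mice were 238 ± 58.7 (SD, n = 5) in naive and 146 ± 61.3 (SD, n = 5) in memory cells, a log2 fold change of -0.76 ± 0.26 (interval -1.30 to -0.22; limma, adjusted p = 0.156). It passed in 2 of 20 refits, with library weights in limma (adjusted p = 0.0204) and without Dock2-deficient memory library 4 (adjusted p = 0.0287). In wild type the change was 0.11 ± 0.29, and the difference between the changes, -0.87 ± 0.39, did not pass limma's test (adjusted p = 0.819). Between genotypes in memory cells the log2 fold change was -0.71 ± 0.27 (interval -1.29 to -0.14; limma, adjusted p = 0.259). Il6ra, the ligand-binding chain, had means of 344 ± 54.7 and 292 ± 102 (SD, n = 4 each) in wild-type naive and memory cells. Its Dock2-deficient means were 317 ± 77.1 and 230 ± 63.8 (SD, n = 5 each). The 4 groups overlapped, and its adjusted p in limma was 0.393 or above in the comparisons between states and 0.497 or above in those between genotypes.

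Stat6 (chromosome 10, 127642986 to 127660957, plus strand, mm10) also had its lowest mean in Dock2-deficient memory cells. Wild-type Stat6 values were 408, 452, 254 and 287 (naive) and 225, 384, 276 and 388 (memory). Dock2-deficient values were 331, 439, 626, 292 and 266 (naive) and 209, 201, 201, 329 and 176 (memory). Apart from memory library 4, every Dock2-deficient memory value lay below all wild-type values, while memory library 4 overlapped each of the other groups.

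Stat6 in Dock2-deficient mice averaged 391 ± 147 (SD, n = 5) among naive and 223 ± 60.2 (SD, n = 5) among memory libraries. The log2 fold change was -0.77 ± 0.25 (interval -1.29 to -0.25), with an adjusted p of 0.127 in limma. It passed in 1 of 20 refits, the one without Dock2-deficient memory library 4 (limma, adjusted p = 0.0464). Wild-type means were 350.3 ± 94.7 and 318 ± 80.9 (SD, n = 4 each), a log2 fold change of -0.13 ± 0.28. Stat3 had means of 190.2 ± 42.0 and 191 ± 79.6 (SD, n = 4 each) in wild-type naive and memory cells. Its Dock2-deficient means were 243 ± 41.6 (naive) and 193 ± 25.9 (memory; SD, n = 5 each). Wild-type memory library 4, which lay apart, read 75.2 for Stat3, beside 217, 257 and 216 in the others of that group. With 1 library left out, the wild-type log2 fold change of Stat3 ranged from -0.29 to 0.29. That between genotypes in memory cells ranged from -0.26 to 0.33. None of the 4 pairwise Stat3 comparisons passed limma's test (adjusted p 0.639 to 0.954), and their 95% intervals spanned 0.

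Neither Socs1 nor Cish differed between groups in a way that passed limma's test. Socs1, an inhibitor of JAKs downstream of interferons and common gamma chain cytokines, had means of 36.6 ± 3.998 and 41.8 ± 17.8 (SD, n = 4 each) in wild-type naive and memory cells. Its Dock2-deficient means were 51.7 ± 15.4 and 36.9 ± 5.29 (SD, n = 5 each). Cish, the gene with 2 promoter matches and a target of STAT5, gave wild-type values of 31.9, 36.2, 18.2 and 57.5 (naive) and 48.1, 56.6, 21.3 and 107.5 (memory). Dock2-deficient values were 29.1, 49.996, 38.9, 14.4 and 21.1 (naive) and 42.6, 56.8, 27.5, 25.5 and 10.6 (memory). All 4 Cish groups overlapped, and the largest value came from wild-type memory library 4, one of the libraries that lay apart. The log2 fold change of Cish between genotypes in memory cells was -0.80 ± 0.48 (limma, adjusted p = 0.397). It was -0.43 without wild-type memory library 4, -0.46 without Dock2-deficient memory library 5, -0.10 without both and -1.20 without wild-type memory library 3.

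Pim1 was low in every group, with 3 to 42.5 reads per library, and reached a value of 10 in 13 of 18 libraries. Its means were 12.0 ± 8.54 and 16.2 ± 7.37 (SD, n = 4 each) in wild-type naive and memory cells, and 13.0 ± 6.47 and 21.5 ± 10.5 (SD, n = 5 each) in Dock2-deficient cells. Each of the pairwise Pim1 comparisons had a 95% interval that included 0. Socs2 averaged 0.974 and 2.45 (wild-type naive and memory) and 0.4998 and 1.41 (Dock2-deficient naive and memory), from at most 4 reads. Pim1 shares 14.5% of its exonic bases with the antisense gene Gm26885 and Cish 7.46% with Gm17041, and reads of such pairs cannot be told apart in an unstranded library. The other overlaps were smaller, among them 0.756% of Stat3 with Stat5a and 0.909% of Stat6 with Nab2.

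**Figure D2:**
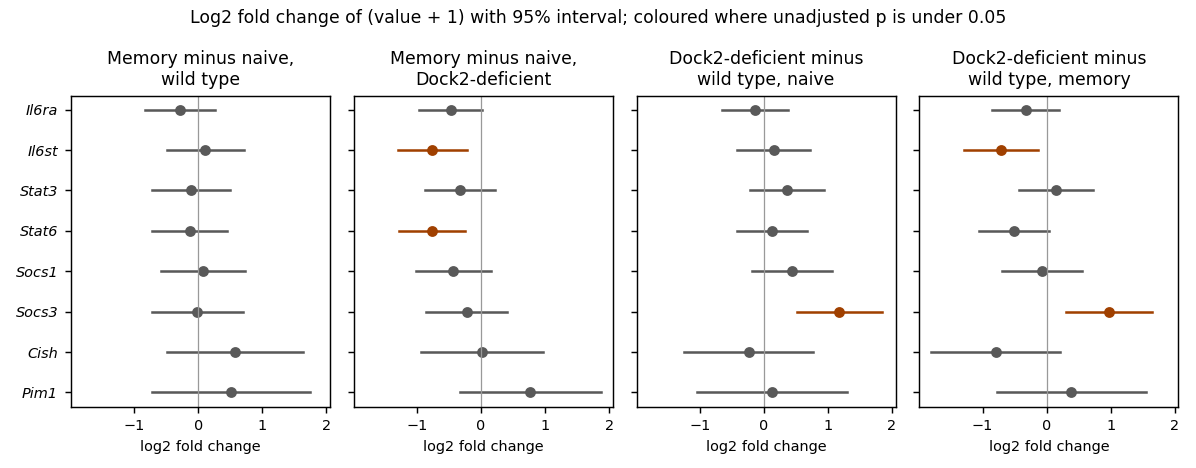
Log2 fold change of (value + 1) with its 95% interval (x axis) for the 8 tested genes (y axis) in the comparisons of states and of genotypes, coloured where the unadjusted p is under 0.05. Socs3 lies to the right of 0 in both genotype panels (1.18 and 0.97), and Il6st (-0.76) and Stat6 (-0.77) to the left in the Dock2-deficient comparison of states.

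As a set, the 8 tested genes were counted against all genes in each comparison. Memory against naive in wild type called 0 of them with limma (2.52% of all genes called), 0 at an unadjusted p under 0.05 (12.1% of all genes), and 0 with library weights or voom. The same comparison in Dock2-deficient mice called 0 with limma (2.82% of all genes), with 2 at an unadjusted p under 0.05 (13.4%), 1 with library weights and 0 with voom. In neither did the groups of any of the 8 separate without overlap, as they did for 8.27% and 3.93% of all genes. Their median log2 fold changes were 0.03 and -0.38, beside medians of -0.02 and -0.01 over all genes. Of the 8, 6 had lower means of log2 values in memory than in naive cells of Dock2-deficient mice, and 4 did in wild type.

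Between genotypes, limma called 0 of 8 in naive cells (0.138% of all genes called) and 0 in memory cells (0.053%), and library weights and voom called 0 in each. At an unadjusted p under 0.05 stood Socs3 in naive cells (1 of 8, and 6.1% of all genes) and Socs3 and Il6st in memory cells (2 of 8, and 16.4% of all genes). Socs3 was also the single gene of the 8 whose genotype groups did not overlap, in memory cells, where 4.44% of all genes had groups that did not overlap. In naive cells 0 of the 8 and 2.71% of all genes did. The median log2 fold changes of the 8 were 0.14 and -0.20, beside 0.00 and 0.01 over all genes. The interaction called 0 of 8 (0.0318% of all genes; 0 with library weights or voom), with 1 at an unadjusted p under 0.05 (Il6st; 5.21% of all genes). Ordering the 4 group means of each of the 9 genes gave 27 neighbouring pairs, and in 3 of them the gap was larger than the larger SD of the pair. These were Stat3 in Dock2-deficient naive over Dock2-deficient memory cells, Stat6 in wild-type over Dock2-deficient memory cells, and Il6st in wild-type naive over Dock2-deficient memory cells. The same count was not made over all genes, so it has no background here.

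The levels of some of these genes moved together from library to library. Over the 18 libraries the Pearson r of log2(value + 1) was 0.81 for Stat6 with Il6ra (0.75 within groups), 0.72 for Stat6 with Il6st (0.56) and 0.66 for Il6ra with Il6st (0.56). Stat3 went with Socs1 at 0.72 (0.67). Socs3 went against Cish at -0.54 (-0.50) and had an r of 0.12 with Stat3 (-0.25). The IL-6 receptor chains and Stat6 thus varied together, while Stat3 had an r of -0.08 to 0.32 with these 3 genes (-0.18 to 0.36 within groups). Socs3 ran against them, with an r of -0.38 with Il6ra (-0.41), -0.31 with Stat6 (-0.48) and -0.27 with Il6st (-0.26). Dock2-deficient memory library 5, which lay apart, had the highest Socs3 (136.2) of the 18 libraries. That library also had the lowest Il6ra (144.5), Stat6 (176.0), Il6st (87.6) and Cish (10.6). Wild-type memory library 4, which lay apart as well, had the lowest Stat3 (75.2) and Socs1 (19.2) and the highest Il6ra (441.4) and Cish (107.5). The r were not computed without these libraries. Libraries share depth and scaling across all genes, so these r describe the table and carry no test.

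**Figure D3:**
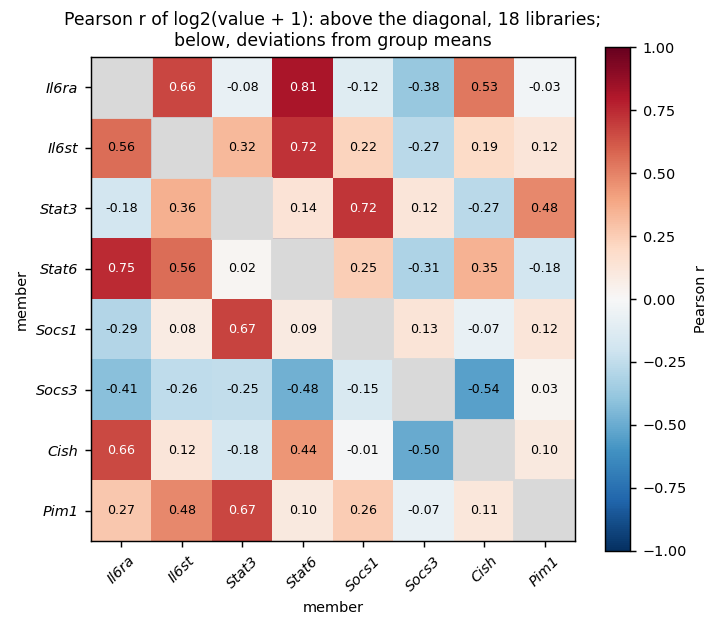
Pearson r of log2(value + 1) between the 8 tested genes (both axes), over 18 libraries above the diagonal and over deviations from the group means below it, with the colour scale from -1 to 1. The highest r are those of Stat6 with Il6ra (0.81), Stat6 with Il6st (0.72) and Stat3 with Socs1 (0.72).

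For each tested gene, the 3 named genes with a mean of at least 50 and the highest r over the 18 libraries were listed. Socs3 was followed most closely by Arf5, a small GTPase of vesicle traffic (0.87, 0.73 within groups), Psmc4, a proteasome ATPase (0.85 and 0.85), and Irf1, an interferon-induced transcription factor (0.84 and 0.71). Irf1 was 199 ± 34.8 and 193 ± 28.1 (SD, n = 4 each) in wild-type naive and memory cells. Its Dock2-deficient means were 300.8 ± 72.8 and 347 ± 135 (SD, n = 5 each). In memory cells its groups did not overlap (152 to 216 against 220.1 to 563), as for 4.44% of all genes. Its log2 fold change between genotypes was 0.58 ± 0.25 (naive; limma, adjusted p = 0.729) and 0.77 ± 0.25 (memory; adjusted p = 0.236). The average over the states was 0.67 ± 0.17 (adjusted p = 0.0939). Irf1 is described here because of its r with Socs3 over all libraries, which includes the genotype difference of Socs3. The genotype difference of Irf1 is therefore no separate evidence.

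The other lists held fewer genes of cytokine signalling. Il6ra went with Slc12a7 (0.93), Ipcef1 and Ylpm1 (0.92 each), and Il6st with Tcf20 (0.87), the TGF-β receptor gene Tgfbr2 and the kinase gene Stk10 (0.85 each). Stat6 went with Tmem229b (0.89), Ano6 and Tcf20 (0.88 each), so that Tcf20 was shared with Il6st. Stat3 went with Pwp2, Smad2 (0.90 each) and Pold1 (0.89), and Socs1 with Hectd3 (0.92), Zfp319 (0.73) and Emc1 (0.72). Cish went with Lyst, Ubfd1 and the mRNA decay factor gene Zfp36l2 (0.82, 0.81 and 0.81), and Pim1 with Celsr1 (0.77), Ehd3 and Tor1aip1 (0.70 each).

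Around these genes, 63 other genes of the pathway were tested, in 12 lists by role. In memory against naive cells, limma called 6 of the 63 higher and 0 lower in wild type, beside 2.52% of all genes called, and 18 had an unadjusted p under 0.05 (12.1% of all genes). Library weights called 9 higher, voom 4 and a scaling to the total without Rn18s-rs5 and mitochondrial genes 3, with 0 lower in each. In Dock2-deficient mice limma called 9 higher and 2 lower, beside 2.82% of all genes, and 20 had an unadjusted p under 0.05 (13.4% of all genes). There library weights called 11 higher and 2 lower, voom 8 and 2, and the scaling to the total, which moved the median of all genes by -0.31, 2 and 2. Under that scaling Il2rb alone was called higher in both genotypes. In limma's test on the deposited values, higher in both were Il2rb, the IL-2 and IL-15 receptor β chain (log2 fold change 3.63 ± 0.27 and 2.77 ± 0.24, wild type first), the IL-10 receptor chains Il10ra (1.31 ± 0.33 and 1.32 ± 0.30) and Il10rb (0.88 ± 0.23 and 1.02 ± 0.21), and Il4ra, the IL-4 receptor chain that recruits STAT6 (0.84 ± 0.21 and 0.89 ± 0.19). Il2rg, the chain shared by the IL-4 and IL-15 receptors, had log2 fold changes of -0.30 and -0.20 that did not pass (limma, adjusted p = 0.584 and 0.653). The STAT5-linked survival gene Bcl2l1 (1.47 ± 0.39 and 2.17 ± 0.35) and the memory factor Eomes (2.89 ± 0.49 and 1.86 ± 0.43) were also higher in both. The largest adjusted p of these 6 genes in limma was 0.0463 in wild type (Il10rb) and 0.0140 in Dock2-deficient mice (Il10ra). In wild type the calls of Il10rb, Bcl2l1, Il10ra and Il4ra were held in only 4, 6, 8 and 8 of 18 refits, and those of Il2rb and Eomes in all 18. The wild-type calls of Bcl2l1 and Il10rb ended without the 2 libraries that lay apart.

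The GTPase genes Igtp (-0.92 ± 0.21) and Gbp2 (-1.19), both induced by interferons, fell in Dock2-deficient memory cells, and Stat4, Ptpn2 and Bcl2 rose there (1.02, 0.98 and 1.14). The wild-type log2 fold changes of these 3 were 1.13, 0.83 and 0.75, and did not pass (limma, adjusted p = 0.0534, 0.188 and 0.118). Igtp was also lower in wild-type memory cells, at -0.51 ± 0.23, and did not pass (limma, adjusted p = 0.363). In Dock2-deficient mice Stat4, Ptpn2 and Gbp2 were held in only 6, 8 and 10 of 20 refits, and the calls of Stat4 and Ptpn2 ended without the 2 libraries that lay apart. The JAK kinases, the other SOCS proteins and their partners, the other Pim kinases and the STAT3-linked targets had 0 genes called in either comparison of states, with 1, 0, 1 and 1 (wild type) or 1, 0, 0 and 2 (Dock2-deficient) at an unadjusted p under 0.05. Library weights added the STAT3-linked gene Myc in wild type, and voom called 0 in these lists. In Dock2-deficient mice the STAT3-linked genes Nfil3 and Junb were each called in 1 other refit. These were the refits without a filter (Nfil3) and without Dock2-deficient memory library 4 (Junb). Jak1, the most abundant JAK gene, was 923 ± 22.7 and 1227 ± 51.0 (SD, n = 4 each) in wild-type naive and memory cells (limma, adjusted p = 0.310). The difference between genotypes in these changes was not called by limma for any of the 63 genes (1 at an unadjusted p under 0.05; 0 with library weights or voom).

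**Figure D4:**
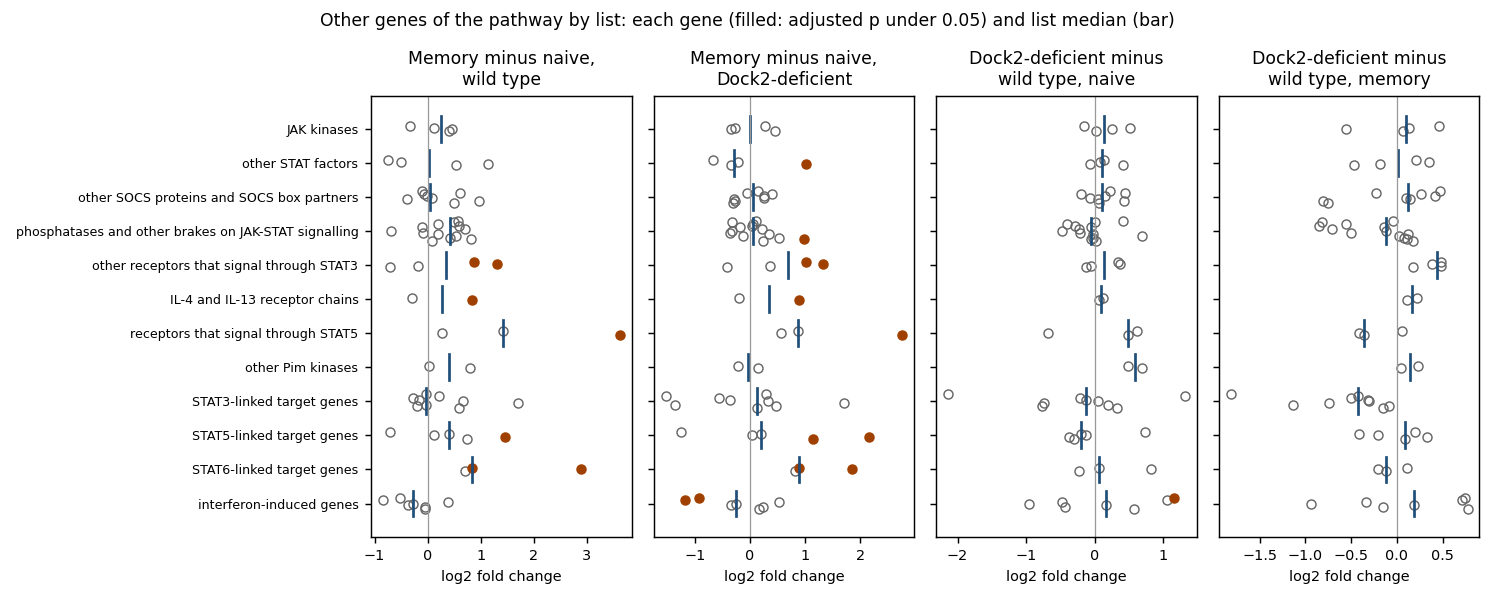
Log2 fold change (x axis, scaled per panel) of 63 other pathway genes by list (y axis) in the comparisons of states and of genotypes, with a circle per gene, filled where limma's adjusted p is under 0.05, and a bar at the list median. Il2rb is the filled point farthest to the right in both comparisons of states (3.63 and 2.77), and the filled point in the naive genotype panel is Igtp (1.16). Genes in 2 lists, such as Il4ra, are drawn in both.

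Between genotypes, the pathway gene that passed was Igtp, an interferon-induced GTPase gene. In naive cells 1 of 63 rose in Dock2-deficient mice and 0 fell, beside 0.138% of all genes called (7 at an unadjusted p under 0.05, beside 6.1% of all genes; voom called 0 and library weights 1). Igtp was 139.7 ± 30.9 (SD, n = 4) and 309.5 ± 47.7 (SD, n = 5), a log2 fold change of 1.16 ± 0.22 (limma, adjusted p = 0.0279). Its groups did not overlap, and the call was held in 7 of 18 refits, with voom among those that lost it.

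In memory cells limma called 0 of the 63 between genotypes (8 at an unadjusted p under 0.05, beside 16.4% of all genes; 0 with library weights or voom), and the log2 fold change of Igtp was 0.75 ± 0.22. Averaged over both states, Igtp (0.95 ± 0.15, limma, adjusted p = 0.00541) was higher in Dock2-deficient mice, as Socs3 was, and its call was held in 26 of 27 refits, the exception being the scaling to the total. In this average limma called 1 of the 63, beside 0.371% of all genes, and 12 had an unadjusted p under 0.05 (14.8% of all genes). Of the 63, voom called Igtp as well, and library weights called Igtp, Gbp2 and Irf1 higher and Il7r lower. The 7 tested interferon-induced genes had a median log2 fold change of 0.18 in this average, beside 0.01 over all genes, and the 9 tested STAT3-linked targets -0.36. Of the latter, the immediate early genes Fos and Junb had log2 fold changes of -2.14 ± 1.28 and -0.76 ± 0.47 in naive cells (limma, adjusted p = 0.909 and 0.914) and of -1.82 ± 1.28 and -0.09 ± 0.47 in memory cells (adjusted p = 0.468 and 0.934). The averaged comparison uses the same libraries as the 2 comparisons within a state and is no separate evidence.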

How the data were processed

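RNA had been extracted with a Qiagen RNAeasy kit and made into unstranded Smartseq2 libraries, per the labels' protocols. The build mm10 and the tools bcl2fastq, FastQC and RSEM are named, without versions, per the submitters' processing notes. The authors deposited a normalized signal, RSEM expected counts divided by a factor per library. All values (100%) lay on steps of 0.01 reads, and 59.5% to 69.3% were whole reads within 0.005. Depth was read back from these steps. Of 46983 genes, the 9437 (20.1%) that reached 10 in 4 or more libraries entered limma 3.58.1 (R 4.3.3) as log2(value + 1), 1 mean per group over 18 libraries, trended variance, two-sided, with Benjamini-Hochberg adjustment and a threshold of 0.05. "Held in" counts refits with other pseudocounts, filters, weights, scaling or libraries in which a gene stayed called. Fold changes on this scale understate low genes. Gene positions are from GENCODE M21 on mm10 (98.9% of identifiers found), and promoters from RefSeq on GRCm38.p6, the same build. Named were the 9 genes, the called genes of each pathway list (where fewer than 2 were called, the 2 most abundant could be given) and the 3 genes most like each. The genes, lists and rules were chosen with earlier results of these data known. No 2 libraries of a group agreed within sampling noise (chi-square per degree of freedom 4.69 to 168). This chi-square included Rn18s-rs5, which took 69.0% and 37.0% in the pair at 168, Dock2-deficient memory libraries 4 and 5. It was not computed without that gene. One gene of the pathway lists was left out and is not reported here.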

Additional observations from a re-analysis of the deposited data

Results flagged for a closer look

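A single library stood far from the others of its group in 4 of the 36 groups examined (9 genes in 4 groups), by the gap to the nearest library over the range of the group. Chance gives about 1 in 20 groups. Stat6 was 328.6 in Dock2-deficient memory library 4, beside 176.0 to 209.5 in the other 4 libraries. Socs3 was 136.2 in Dock2-deficient memory library 5, which also lay apart over all genes, beside 40.9 to 67.0. Il6st was 304.1 in wild-type memory library 2, beside 199 to 206. Socs2 was 1.99 in Dock2-deficient naive library 5, beside 0 to 0.338, which is a difference of a few reads.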

How the results depend on the processing

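Of 1032 refits of 48 fold changes (8 genes, 6 comparisons), 1011 stayed on the same side of the threshold, 18 lost and 3 gained a call, and no called value changed sign. Another 48 uncalled values changed sign. With library weights limma called 377, 450, 40, 5 and 120 genes (memory against naive in wild type and Dock2-deficient mice, genotype in memory cells, interaction, averaged genotype), in place of 238, 266, 5, 3 and 35, with 1 of the 8 in the second. In naive cells the genotype count of 13 became 8 with only the compared libraries and 6 with voom. In memory cells it became 12 at pseudocount 5, 10 without a filter, 3 with a filter of 20 and 3 with only the compared libraries. The interaction count became 1 with a filter of 20 and 0 without a filter, with voom, or without wild-type memory 4 and Dock2-deficient memory 5. The averaged count became 21 without a filter, 22 with a filter of 20 and 13 with voom. The averaged call of Socs3 was lost, leaving 0 of the 8, without a filter, with voom, without both libraries that lay apart and with the scaling to the total (adjusted p = 0.106, 0.0880, 0.0561 and 0.0756). Counting only bases before the start left 1 gene with TTCNNNGAA. Leaving out 1 library gave 185 to 214, 203 to 321, 9 to 19, 3 to 13, 0 to 2 and 20 to 56 genes in the 6 comparisons, with 0 to 2 of the 8 in Dock2-deficient memory against naive and 0 to 1 in the averaged genotype. Replicate numbers pair nothing stated in the labels: same-numbered libraries correlated at -0.253 to 0.303 (over 0.1 in 3 of 9 pairs, highest with their own number in 4 of 9). A replicate block by genotype and number gave 196 (wild type) and 218 (Dock2-deficient) genes in memory against naive cells. Between genotypes the block was the number alone, so it joined libraries of different genotypes. That block gave 19 genes in naive cells and left Socs3 uncalled on average (limma, adjusted p = 0.0567). Scaling to the total without Rn18s-rs5 and mitochondrial genes moved the median of all genes by -0.31 (Dock2-deficient memory against naive), -0.28 (genotype, memory), -0.27 (interaction) and -0.15 (averaged). The higher and lower calls then changed from 167 and 99 to 95 and 158 in the first, from 3 and 2 to 3 and 3, from 1 and 2 to 0 and 2, and from 21 and 14 to 11 and 13. Pim1 and Socs2 had the fewest reads of the 9 genes.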
